A study of Mus musculus with 8 samples.

Results

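The regions described here are peaks of accessible chromatin whose signal was at least 3 times higher in liver sinusoidal endothelial cells (LSECs) of MafLSEC-KO mice than in those of control mice. They were chosen by the measured values themselves: the mean normalized count of the 4 MafLSEC-KO libraries was at least 3 times that of the 4 control libraries, and the lowest MafLSEC-KO library lay above the highest control library. A run of peaks on chromosome 8, chr8:3642493-3814135, was left out. The rule took 498 of the 58522 listed peaks (0.851%), called gained peaks here. Of all listed peaks, 0.899% (526) reached the ratio alone and 11.4% (6684) had all MafLSEC-KO libraries above all control libraries. The difference between the groups is therefore how the peaks were found and is given as a description throughout.

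ATAC-seq, in which the Tn5 transposase cuts and tags open DNA, was performed on endothelial cells selected from mouse liver by the surface antigen CD146. MafLSEC-KO mice were Clec4g-iCre tg/wt and Maf fl/fl, so that Maf, which encodes the transcription factor c-Maf, was deleted where the Clec4g-driven Cre is expressed. Controls were Clec4g-iCre wt/wt littermates with Maf fl/fl or Maf fl/wt alleles. The animals were 12 weeks old, and the study used females and males. Each genotype had 4 libraries. The labels speak of 3 mice, which is fewer than the libraries of a group, so libraries may share animals and n counts libraries. The study's isolation method also describes pooling the livers of 3 mice, so a library may stem from a pool. Which animals gave which library was not stated. The CD146 selection also keeps endothelium of larger hepatic vessels, and a signal from more cells of a type cannot be told apart in such bulk libraries from more signal per cell.

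Most distal ATAC-seq peaks mark enhancers and other regulatory elements, which are bound by combinations of cell type-specific and broadly expressed transcription factors. LSECs are fenestrated, lack an organized basement membrane and take up material through scavenger receptors. Continuous endothelium, found in many other vascular beds, is often rich in caveolae and marked by CD34. c-Maf is a basic leucine zipper factor that binds an element with the core TGCTGA, and the related AP-1 factors of the FOS and JUN families bind TGANTCA, where N is any base.

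The sequences below show what the gained peaks held at their centres. They are the central 200 bases of 6 of the 12 gained peaks with the largest ratios, taken 1 per gene with predicted genes passed over, read from GRCm38.p6, the assembly behind mm10, and named for the nearest gene. Capitals mark matches to the AP-1 element TGANTCA and to the SOX element ACAATG, on either strand. The first 4 were chosen because they hold an AP-1 match, the fifth because it holds SOX matches alone, and the sixth because it had the largest ratio of all and holds neither.
Cavin3, chr7:105475577-105475776, plus strand: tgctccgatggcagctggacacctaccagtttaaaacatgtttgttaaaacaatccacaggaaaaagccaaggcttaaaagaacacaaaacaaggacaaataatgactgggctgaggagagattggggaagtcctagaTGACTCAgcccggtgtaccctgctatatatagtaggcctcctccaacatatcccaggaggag
Ltbp1, chr17:74881352-74881551, plus strand: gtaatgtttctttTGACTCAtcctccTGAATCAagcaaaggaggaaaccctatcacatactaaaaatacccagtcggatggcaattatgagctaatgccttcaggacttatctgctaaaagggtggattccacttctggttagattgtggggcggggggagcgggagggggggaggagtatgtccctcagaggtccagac
Arntl2, chr6:146793717-146793916, plus strand: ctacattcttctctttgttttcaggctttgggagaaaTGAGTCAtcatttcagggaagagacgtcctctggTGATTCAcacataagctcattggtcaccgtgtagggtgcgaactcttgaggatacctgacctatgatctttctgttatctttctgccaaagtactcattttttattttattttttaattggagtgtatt
Igfbp3, chr11:7237878-7238077, plus strand: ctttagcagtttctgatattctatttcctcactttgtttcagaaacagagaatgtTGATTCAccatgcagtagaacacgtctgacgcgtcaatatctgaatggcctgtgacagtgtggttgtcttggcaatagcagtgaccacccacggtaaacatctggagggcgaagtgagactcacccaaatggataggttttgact
Wt1os, chr2:105108794-105108993, plus strand: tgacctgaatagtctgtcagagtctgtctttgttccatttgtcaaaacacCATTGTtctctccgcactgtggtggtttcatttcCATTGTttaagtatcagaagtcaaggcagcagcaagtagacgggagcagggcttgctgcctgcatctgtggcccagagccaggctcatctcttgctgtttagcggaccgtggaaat
Ssu2, chr6:112402164-112402363, plus strand: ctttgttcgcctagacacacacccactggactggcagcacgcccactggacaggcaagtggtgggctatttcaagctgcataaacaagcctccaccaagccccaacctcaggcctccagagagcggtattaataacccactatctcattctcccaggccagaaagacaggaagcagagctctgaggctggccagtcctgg

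In the Ltbp1 and Arntl2 windows the AP-1 element occurred 2 times, in those of Cavin3 and Igfbp3 it occurred 1 time, and in the Wt1os window the SOX element occurred 2 times on the minus strand. A match is a string of letters and shows no binding.

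Among library-wide measures, total counts in peaks were 6783573 to 11614365 in MafLSEC-KO and 5367124 to 13364062 in control libraries. Control replicates 1 and 3, with 5367124 and 5529802 counts, were the shallowest libraries. Of 8 defining genes of sinusoidal endothelium, 6 had a promoter peak (median 18.3 RPKM in MafLSEC-KO and 21.5 RPKM in controls), and Stab2 and Mrc1 had peaks elsewhere only. Lyve1 had 12.7 RPKM in MafLSEC-KO and 28.8 RPKM in controls, and Fcgr2b had 10.4 and 17.7. Stab1 had 17.1 and 19.2, Pecam1 19.6 and 23.8, and Cdh5 38.3 and 30.0. Clec4g, in the run left out on chromosome 8, had 43.8 and 18.8. The defining genes of hepatocytes, macrophages and stellate cells (5 each) and of cholangiocytes (4) had 0 promoter peaks, and those of lymphocytes had 1 among 5. No gained peak was nearest to a gene of the marker lists of these 5 cell types. The lists held 23 peaks for hepatocytes, 17 for macrophages, 23 for stellate cells, 17 for cholangiocytes and 22 for lymphocytes. Such lists are too small to tell 0 from the 0.851% of all peaks that were gained. The summed normalized count of the peaks of these lists overlapped between the groups for each list. It was for example 1455 to 1715 against 1401 to 1797 for hepatocytes and 1146 to 1327 against 1205 to 1289 for macrophages (MafLSEC-KO against control). None of 10 library measures passed correction in a two-sided exact permutation test (smallest p = 0.0571, 0.357 after Benjamini-Hochberg adjustment, where 0.0286 is the smallest p that 4 against 4 libraries allow). Over 10 tests a single measure at that smallest p would not pass either. The test therefore cannot show that the groups were alike in these measures. By the study's flow cytometry of isolated cells, the share positive for LYVE1 or CD31 was lower in MafLSEC-KO than in controls. The share positive for the myeloid marker CD11b was higher. The run left out on chromosome 8 surrounds Clec4g, and 23 of its 25 peaks met the rule. In MafLSEC-KO the transgene and the native Clec4g locus cannot be told apart there.

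The gained peaks were weakly accessible in controls. Their median signal was 83.0, 89.0, 89.1 and 78.5 normalized counts in MafLSEC-KO replicates 1 to 4, against 27.2, 19.8, 25.5 and 19.0 in control replicates 1 to 4. Over all peaks the library medians were 72.6 to 76.6 in MafLSEC-KO and 70.2 to 81.6 in controls. Gained peaks thus stood a little above the middle of the peak set in every MafLSEC-KO library and far below it in every control library. They held 0.622% to 0.740% of the counts of a MafLSEC-KO library and 0.148% to 0.231% of those of a control library. The shallow control replicates 1 and 3 had the highest control value at 212 and 163 of the 498 peaks. Without these 2 libraries 1154 peaks met the rule, among them 446 of the 498, and the median control level was 16.3 instead of 22.9 normalized counts.

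**Figure D1:**
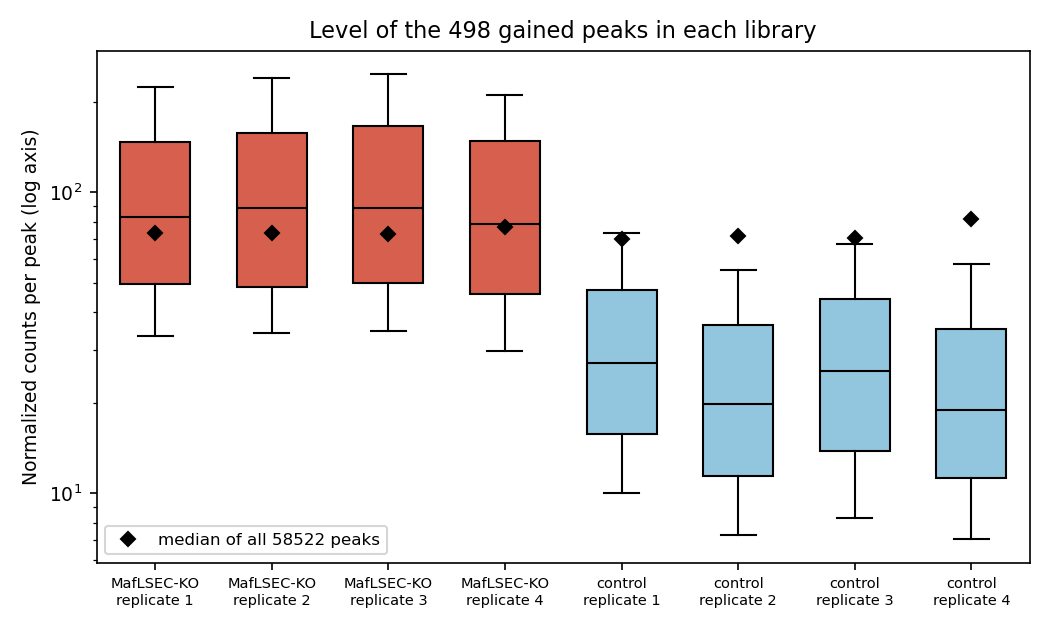
Normalized counts per peak (vertical, log axis) of the 498 gained peaks in each of the 8 libraries, MafLSEC-KO in red and control in blue; boxes give the quartiles and the median, whiskers the 10th and 90th percentiles, and diamonds the median of all peaks in that library. Box medians lie between 78.5 and 89.1 in MafLSEC-KO and between 19.0 and 27.2 in control libraries.

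Per length of peak, the picture was the same. The mean level in RPKM (reads scaled to the length of the peak and the depth of the library) had a median of 20.1 in MafLSEC-KO and 5.71 in controls over the gained peaks, against 15.4 and 15.8 over all peaks. In controls 490 of the gained peaks (98.4%) were below the median peak and 414 (83.1%) were below its 10th percentile. In MafLSEC-KO 409 (82.1%) were above the median peak, but only 37 were above its 90th percentile. Gained peaks therefore stood at the low end of the peak set in controls and in its middle and upper range in MafLSEC-KO. Both group means are part of the rule, so these positions are partly set by it. Peaks chosen by the mirrored rule, at least 3 times lower in MafLSEC-KO, showed the reverse. Their medians were 23.1 RPKM in controls and 5.86 RPKM in MafLSEC-KO. Summed over the 8 libraries no listed peak had an RPKM below 48.4, so a site that was closed in both groups was not on the list. Of 1088 listed peaks with a control RPKM below the median of the gained peaks, 249 were gained peaks, against 0.851% of all peaks. A peak that low in controls was listed only with enough MafLSEC-KO signal. This count therefore cannot show what a low control level alone would give. The summed raw count over the 4 control libraries had a median of 85 reads and a lowest value of 15, and 3 gained peaks had a control library at 0 reads.

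**Figure D2:**
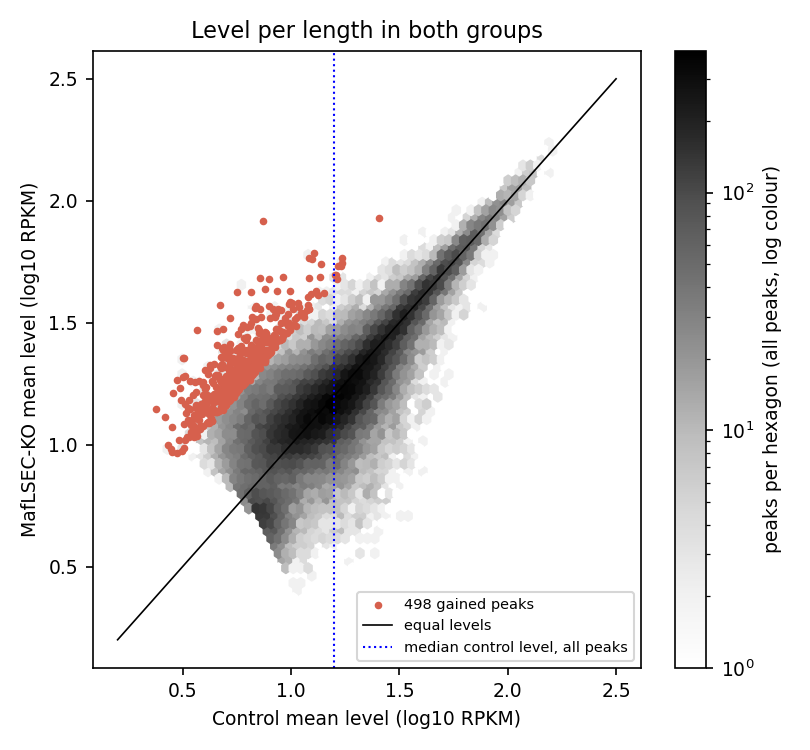
Mean level per length in MafLSEC-KO (vertical, log10 RPKM) against controls (horizontal, log10 RPKM) for all 58522 peaks (grey hexagons, darker for more peaks) and the 498 gained peaks (red points). The red points lie above the line of equal levels by construction, and 490 of them lie left of the dotted line at the control median of all peaks.

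The ratio of means ran from 3.0 to 11.6 with a median of 3.51, and 127 gained peaks reached a ratio of 4, 46 a ratio of 5, 16 a ratio of 6 and 3 a ratio of 8. Just inside the threshold were peaks near Lepr, Rasgrf2 and Tmem44, each with a ratio of 3.0, and just outside it were peaks near P2rx1 (2.997), Bhlhb9 (2.99) and Ablim1 (2.99). The Lepr peak, for instance, had 147, 137, 168 and 152 normalized counts in MafLSEC-KO and 48.7, 46.8, 60.7 and 45.0 in control libraries. The P2rx1 peak had 26.0, 41.3, 43.2 and 32.0 in MafLSEC-KO and 8.59, 10.4, 12.4 and 16.2 in controls. In both peaks the 4 MafLSEC-KO libraries lay above the 4 control libraries. With edgeR's quasi-likelihood test over all peaks, 497 of the 498 were called higher at an adjusted p under 0.05, against 8.97% of all 58268 peaks tested, which follows from the rule. Over all peaks 5229 were called higher, and 3349 without control replicate 2. The exception, picked out after its values were seen, was an intronic peak nearest to Btbd16 with 13.6, 18.3, 22.5 and 32.0 normalized counts in MafLSEC-KO and 1.43, 12.5, 12.4 and 1.41 in controls.

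Libraries that took no part in a choice bear on the size of these differences. When the rule was applied to 3 MafLSEC-KO and 3 control libraries, for each of the 16 ways to leave out 1 of each, it chose 437 to 746 peaks. In the pair of libraries left out, the MafLSEC-KO value was above the control value in 95.4% to 99.4% of the chosen peaks (median 98.1%), against 43.2% to 60.5% of all peaks. The median ratio in the left-out pair, with 1 added to each value, was 2.22 to 3.68, with a median of 2.92 over the 16 pairs. It was 2.22 to 2.76 with control replicate 1 or 3 left out, and 3.07 to 3.68 with control replicate 2 or 4 left out. The direction thus recurred in the pair of libraries left out. The ratio there was in 14 of the 16 pairs smaller than the 3.51 of the full choice, which is a ratio of group means with nothing added. Libraries that share animals would not be independent in this respect.

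Gained peaks were distal. By the annotation in the deposited table, 249 of 498 were intergenic (50.0%, 95% exact binomial interval 45.5% to 54.5%), against 35.7% of all peaks. Introns held 213 (42.8%, 38.4% to 47.2%), the same as the 42.8% of all peaks, and exons held 12. Promoters held only 10 (2.01%, 0.967% to 3.66%), against 13.2% of all peaks. Promoters were likewise scarce among the 417 peaks that were at least 3 times lower in MafLSEC-KO with no overlap of the groups (called lost peaks here), of which they held 1.44%. Intergenic sequence held 38.4% of the lost peaks, and introns 54.7%. The promoter share was 4.16% without control replicates 1 and 3.

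**Figure D3:**
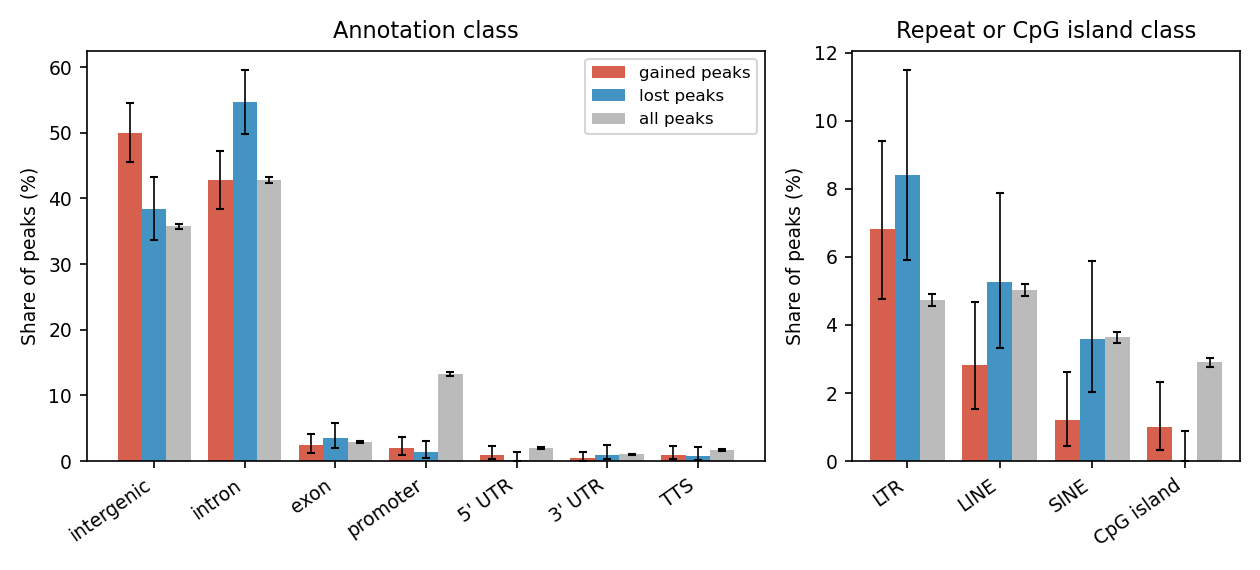
Share of peaks in percent (vertical) in each annotation class (left) and in repeat or CpG island classes (right) for the 498 gained peaks (red), the 417 lost peaks (blue) and all 58522 peaks (grey); bars carry 95% exact binomial intervals, which cover counting error only. Gained peaks stand at 50.0% intergenic and 2.01% promoter, all peaks at 35.7% and 13.2%.

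The distance to the nearest transcription start had a median of 35090 bases for gained, 32757 bases for lost and 16186 bases for all peaks. Of the gained peaks 24 (4.82%) were within 1000 bases of a start, against 1.44% of lost and 20.7% of all peaks. Another 126 (25.3%) were farther than 100000 bases away, against 21.8% of lost and 11.8% of all peaks. Lost peaks were thus also far from starts. Gained peaks were also poorer in GC and CpG: the median GC content was 45.6% against 49.1% of all peaks, and the median number of CpG per 100 bases was 1.13 against 1.57. Lost peaks had a GC content of 46.0% and 1.18 CpG per 100 bases. The median width was 492.5 bases for gained, 402 for lost and 574 for all peaks. Among repeats, LTR elements overlapped 34 gained peaks (6.83%, 4.77% to 9.41%), against 8.39% of lost and 4.74% of all peaks. LINE elements overlapped 14 (2.81%, 1.55% to 4.67%), against 5.28% of lost and 5.03% of all peaks. LTR, LINE and SINE elements together held 54 (10.8%), against 17.3% of lost and 13.4% of all peaks.

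Of 20 short motifs searched on both strands of the central 300 bases of each peak, the AP-1 element had the highest share in gained peaks relative to all peaks. It occurred in 199 gained peaks (40.0%, 35.6% to 44.4%), against 11.5% of all peaks and 15.1% of lost peaks, with 1 match in 154 gained peaks, 2 in 41 and more in 4. The SOX element ACAATG occurred in 33.1% (29.0% to 37.5%) of gained peaks, against 14.4% of all and 13.4% of lost peaks. Thus 304 gained peaks (61.0%) held an AP-1 or a SOX match, against 23.8% of all and 25.9% of lost peaks, and 60 held both. SOX factors of the SOX17 and SOX18 group are known for their part in endothelial and arterial identity.

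The GATA element AGATAA was found in 32.3% of gained peaks against 16.1% of all and 23.5% of lost peaks. A MEF2 element (CTA and TAG spaced by 4 bases) was found in 9.24% against 4.42% of all and 6.47% of lost peaks, and the TEAD element GGAATG in 23.3% against 14.3% and 17.5%. NFAT matches (TTTCCA) were in 35.3% of gained, 24.1% of all and 32.6% of lost peaks. By contrast, ETS matches (AGGAAGT), the element of a factor family active throughout the endothelium, were about as frequent in gained (17.1%) as in all (16.2%) and lost peaks (16.5%). The core TGCTGA of the c-Maf element was in 17.9% (14.6% to 21.5%) of gained, 22.7% of all and 61.2% (56.3% to 65.9%) of lost peaks. CTCF matches (AGGGGGC) were in 5.42% of gained and 8.13% of all peaks. The AP-1 and c-Maf elements can overlap, and 39 gained peaks (7.83%) held both, against 3.32% of all and 9.35% of lost peaks.

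**Figure D4:**
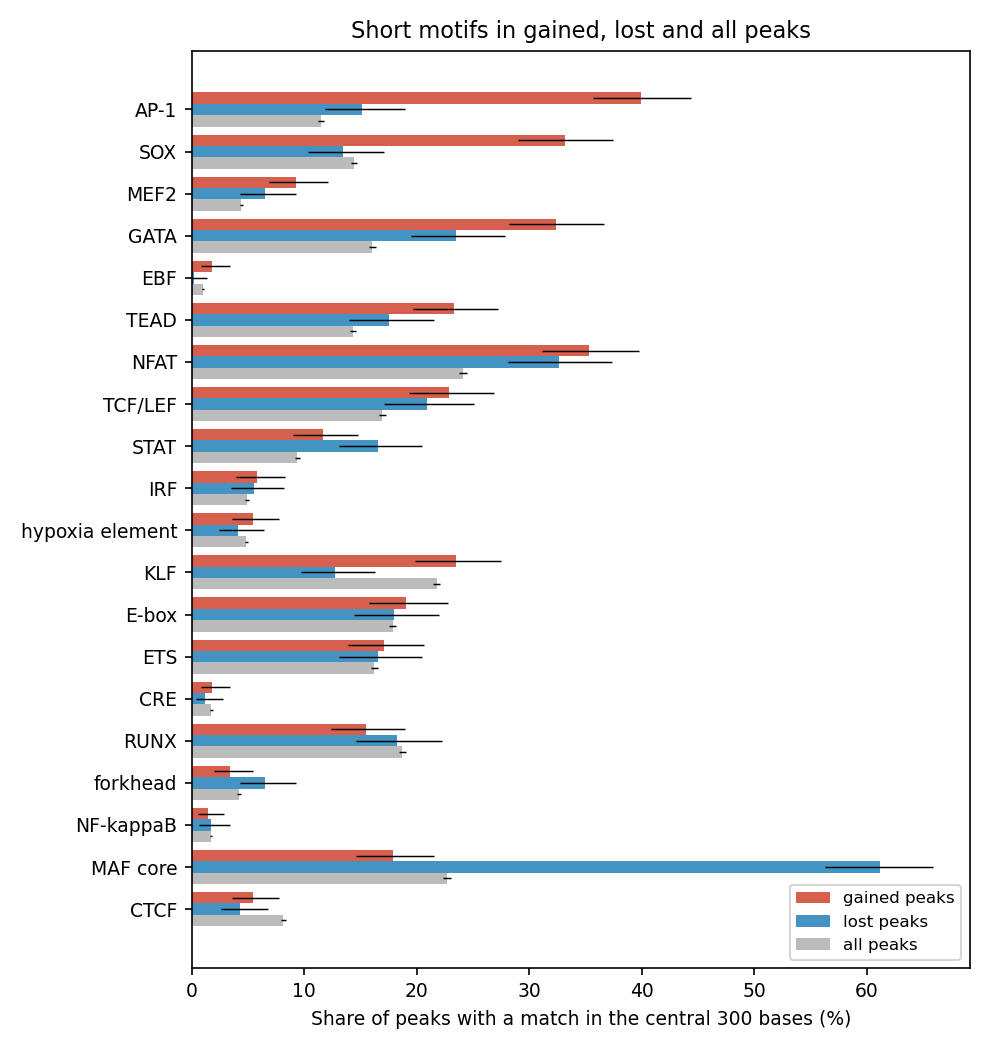
Share of peaks in percent (horizontal) with at least 1 match in the central 300 bases for 20 short motifs (vertical), in gained (red), lost (blue) and all peaks (grey), ordered by the ratio of the gained share to that of all peaks; bars carry 95% exact binomial intervals. AP-1 stands at 40.0% of gained peaks against 11.5% of all peaks, and the MAF core at 61.2% of lost peaks.

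Within groups of peaks of like base composition the AP-1 share was higher in gained peaks as well. In 5 equal groups of the peak set by GC content, from low to high, 43.9%, 39.7%, 35.1%, 45.7% and 21.9% of gained peaks held it, against 15.1%, 14.4%, 13.5%, 10.6% and 3.93% of all peaks in the same groups. The SOX shares were 38.7%, 32.5%, 30.9%, 31.4% and 15.6% of gained peaks, against 22.4%, 18.5%, 15.6%, 10.7% and 4.72% of all peaks. By class, AP-1 was in 44.2% of intergenic and 40.4% of intronic gained peaks and in 1 of the 10 gained promoters. Of the 46 gained peaks with a ratio of at least 5, 24 (52.2%) held an AP-1 match, against 38.3% of those with a ratio of 4 to 5, 41.5% at 3.5 to 4 and 37.5% of the 248 under 3.5, so that the share did not climb steadily with the ratio, by which the peaks were chosen. The median control RPKM was 5.81 in gained peaks with AP-1 and 5.66 in those without it. Without control replicates 1 and 3 the AP-1 share was 31.7% and the SOX share 31.5%.

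The largest ratio belonged to an intergenic peak at chr6:112401791-112402736, 14240 bases from the start of Ssu2. It had 608, 824, 801 and 540 normalized counts in MafLSEC-KO and 65.9, 60.3, 66.2 and 45.7 in control libraries (693 ± 141 and 59.5 ± 9.59, SD, n = 4 each). No MafLSEC-KO library came near a control library. On its other side the next starts are those of Cav3, the muscle caveolin, 57.2 kb away, and of Oxtr, the oxytocin receptor, 87.7 kb away. The promoter of Ssu2 was itself a gained peak, with a ratio of 3.28.

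Cavin3, which encodes a coat protein of caveolae, had 2 gained peaks. The intergenic one at chr7:105475447-105475905 had 146, 155, 168 and 138 normalized counts in MafLSEC-KO and 14.3, 20.8, 24.8 and 13.4 in controls, a ratio of 8.28. The other covered the first exon, 379 bases from the start, with 217, 235, 250 and 193 in MafLSEC-KO and 83.1, 55.1, 97.9 and 47.8 in controls, a ratio of 3.15. Per length both were alike in controls, with 4.70 RPKM at the distal peak and 5.21 RPKM at the exon, and they differed in MafLSEC-KO, with 37.4 and 15.7 RPKM.

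Further peaks with large ratios lay near genes of varied function. The Rbp2 peak, in an intron of a retinol-binding protein gene, had 89.2, 107, 117 and 83.3 normalized counts in MafLSEC-KO and 20.1, 12.5, 12.4 and 1.41 in controls. An intronic peak of Wt1os, the antisense transcript next to the transcription factor gene Wt1, had 255, 295, 291 and 253 in MafLSEC-KO and 32.9, 53.0, 46.9 and 24.6 in controls, 17.6 kb from the start of Wt1. The others of the 12 largest, 1 per gene, were in or near Sorbs2 and Ank3 (adaptors of the cytoskeleton and membrane), Itgb4 (an integrin subunit), Ltbp1 (which binds latent TGF-beta), Arntl2 (a clock transcription factor), Igfbp3 (which binds insulin-like growth factors), Hrh2 (a histamine receptor) and Pkig (an inhibitor of protein kinase A). Their ratios were 5.94 to 7.42. The Itgb4 peak lies in an intron of Sap30bp, and a peak may act on a gene other than its nearest.

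Of the 10 gained promoters, that of the transcription factor gene Ebf1 had the highest count in MafLSEC-KO, over a peak of 1720 bases. Per length it had 25.3 RPKM in MafLSEC-KO, below the promoters of Flrt2 (42.8 RPKM), Emp1 (40.5 RPKM) and Nav3 (30.2 RPKM). It had 360, 374, 450 and 352 normalized counts in MafLSEC-KO and 88.8, 65.5, 95.1 and 51.3 in controls, a ratio of 5.11. A second gained peak lay in an Ebf1 intron. Flrt2 encodes a transmembrane protein of cell adhesion and guidance, and its promoter had 129, 157, 196 and 159 in MafLSEC-KO and 64.4, 42.6, 44.1 and 37.3 in controls, a ratio of 3.40. Other promoters described by the naming rule were those of Emp1, Pkig, Nav3, Sh3gl3 and Prnd, with ratios of 3.24 to 4.48. Emp1 had 258, 284, 284 and 217 in MafLSEC-KO, against 120, 53.0, 63.4 and 59.1 in controls, where replicate 1 stood apart.

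A few gained peaks had high counts in controls, not scaled to width: 16 had a control mean of at least 100 normalized counts, against 22897 of all peaks. The highest was an intergenic peak 236641 bases from Dach1, which encodes a transcription factor, with 783, 874, 925 and 651 in MafLSEC-KO and 256, 201, 258 and 226 in controls. Peaks in Tmod3, whose product caps actin filaments, in Pik3ip1, an inhibitor of phosphoinositide 3-kinase, near Mir3967 (in a Gad2 intron) and near Cers6, a ceramide synthase, followed with control means of 140 to 187. The ratios of these 5 peaks were 3.01 to 3.44, at the low end of the gained peaks.

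The gained peaks were spread over many loci. They were nearest to 430 genes, of which 378 had 1 gained peak, 39 had 2, 11 had 3, 1 had 4 (Clic5) and 1 had 5 (Ank3). Of the 498, 131 lay within 100 kb of another in 56 groups, 17 of them with at least 3 peaks, and 367 stood alone. The 4 Clic5 peaks lie within 27.8 kb of 1 intron of this gene of a chloride intracellular channel protein. Their MafLSEC-KO means were 89.9, 49.1, 189 and 61.6 normalized counts, against 17.9, 11.2, 55.6 and 19.99 in controls. Clic5 had 9 peaks in all, 6 called higher, the 4 gained ones among them, and 0 lower. Ank3, which encodes ankyrin-G, had 17 peaks over a larger locus, 9 called higher, its 5 gained ones among them, and 0 lower. The gained Ank3 peaks had ratios of 3.17 to 6.30. Over all peaks 8.97% were called higher and 6.45% lower, and the calls of gained peaks follow from the rule. A further 4 gained peaks lay within 126 kb around Ddah1 and Ccn1, and 3 near Lyplal1 within 5.03 kb.

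Peaks next to gained peaks, themselves not gained, were more often called higher in MafLSEC-KO than peaks elsewhere. Among 43 such peaks whose centres were less than 2 kb from that of a gained peak, 21 (48.8%) were called higher and 1 lower, with a median log2 fold change of 0.68. The share was 38.1% of 139 peaks at 2 to 5 kb, 34.1% of 217 at 5 to 10 kb, 20.5% of 551 at 10 to 25 kb and 13.5% of 1485 at 50 to 100 kb, and 7.06% of those farther than 1000 kb. These shares stand beside 8.97% of all peaks called higher and 6.45% called lower. The share of peaks called higher was thus largest beside the gained peaks and declined with distance.

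Promoters of the genes nearest to gained peaks are described without those that were themselves gained. That they moved less than the gained peaks follows from the rule. Of 149 promoter peaks at 144 of these genes that were not gained peaks, 28 (18.8%) were called higher and 1 (Car5b, named after its value was seen) lower, against 5.48% higher and 1.65% lower of all 7751 promoter peaks tested. Their median log2 fold change was 0.13, against 0.04 for all such promoter peaks. The Cd34 promoter had 218, 259, 262 and 187 normalized counts in MafLSEC-KO and 97.4, 88.4, 105 and 89.3 in controls (log2 fold change 1.27 ± 0.17 SE, edgeR adjusted p = 5.39e-05). The S1pr1 promoter, of a receptor for sphingosine 1-phosphate that stabilizes endothelial junctions, had 495, 628, 559 and 469 in MafLSEC-KO and 274, 334, 339 and 345 in controls (0.71 ± 0.13, edgeR adjusted p = 0.000617). In both, every MafLSEC-KO library lay above every control library. The promoters of Cd34 and S1pr1, like those of Wt1, Mid1, Lmo7 and Lims2 (log2 fold changes 1.36 to 1.53), were picked out after their values were seen.

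Genes of continuous endothelium had 5 gained peaks among 151 peaks (3.31%), against 0.851% of all. Over the whole list 38 peaks (25.2%) were called higher and 8 (5.30%) lower, against 8.97% and 6.45% of all peaks. These 3 shares of all peaks (0.851% gained, 8.97% higher and 6.45% lower) also stand beside the lists that follow. Besides the 2 Cavin3 peaks, the gained ones were 2 in Cd34, the surface sialomucin of continuous endothelium, and 1 assigned to Efnb2, the arterial ephrin ligand. A Cd34 peak over exon 3 had 79.3, 46.1, 49.3 and 62.5 normalized counts in MafLSEC-KO and 20.1, 14.6, 15.2 and 23.2 in controls. The Efnb2 peak had 114, 117, 156 and 124 in MafLSEC-KO and 44.4, 28.1, 56.5 and 31.6 in controls, but it lies 801978 bases from that gene. Sinusoidal endothelium, in contrast, had 2 gained peaks among 213, near Cd4 and Il6st, with 8 called higher (3.77%) and 59 lower (27.8%). The lists were chosen with earlier results of these data known and are described by these counts only.

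Endothelial transcription factors, which set vascular identity, had 7 gained peaks among 474 (1.48%, against 0.851% of all), in or near Ebf1, Ets1, Etv4, Mecom, Nr2f2 and Tcf15. Of the list's tested peaks 71 (15.0%) were called higher and 25 (5.29%) lower, against 8.97% and 6.45% of all peaks, so that the lower share was near that of all. Nr2f2 encodes COUP-TFII, a regulator of venous identity, and its gained peak, 480800 bases away, had 109, 90.6, 123 and 94.5 normalized counts in MafLSEC-KO and 45.8, 16.6, 12.4 and 12.7 in controls. Etv4, of the ETS family, had 33.4, 77.1, 45.8 and 37.2 in MafLSEC-KO and 28.6, 9.36, 9.65 and 12.0 in controls, so that the groups were only just apart. In each of these peaks control replicate 1 was the highest control library. The AP-1 factor genes themselves had 0 gained peaks among 72, with 0 called higher and 5 lower, and genes of MAF, BACH and NRF factors had 0 among 113.

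Ligands and matrix proteins accounted for several of the remaining list members. Profibrotic angiocrine genes had 3 gained peaks among 102 (2.94%), at the Flrt2 promoter and near Ccn1 and Ccn2, matricellular proteins that are secreted into the matrix. Over that list 20 peaks (19.8%) were called higher and 5 (4.95%) lower, against 8.97% and 6.45% of all peaks. The Ccn2 peak, in an intron of the predicted gene Gm15270, had 198, 213, 197 and 213 normalized counts in MafLSEC-KO and 40.1, 24.95, 52.4 and 40.1 in controls, a ratio of 5.21. The Ccn1 peak had 71.8, 61.2, 68.3 and 82.6 in MafLSEC-KO and 31.5, 27.03, 15.2 and 20.4 in controls, a ratio of 3.02. Basement membrane and matrix genes had 2 gained peaks among 238 (0.840%, near the 0.851% of all peaks), both in the first intron of the laminin chain gene Lamc1, and 37 (15.5%) called higher against 22 (9.24%) lower.

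TGF-beta and BMP signalling had 5 gained peaks among 246, assigned to Ltbp1 (2), Ltbp3, Bmper and Tgfbr1. The peak assigned to Tgfbr1 lies in a Col15a1 intron, 42266 bases from Tgfbr1, and that assigned to Bmper lies 315069 bases from that gene. Over the list 18 peaks were called higher (7.32%) and 17 lower (6.91%), near the 8.97% and 6.45% of all peaks. The distal Ltbp1 peak had 177, 213, 221 and 181 normalized counts in MafLSEC-KO and 17.2, 24.95, 34.5 and 45.7 in controls, and that of Bmper, which encodes a BMP-binding protein of endothelium, had 80.5, 68.4, 67.4 and 77.4 in MafLSEC-KO and 34.4, 6.24, 11.03 and 2.81 in controls. Igfbp3, listed among tip cell genes, had 2 gained peaks within 25 kb of its start, with ratios of 6.02 and 5.38. The peak in the first intron of Vegfc, the ligand of VEGFR3, had the lowest normalized counts of those named, with 28.5, 13.5, 11.2 and 16.4 in MafLSEC-KO and 5.73, 9.36, 2.76 and 4.22 in controls. Guidance genes had 4 gained peaks among 332 (assigned to Efnb2, Flrt2, Flrt3 and Slit3), with 34 called higher (10.3%, near that of all peaks) and 44 lower (13.3%). The peak assigned to Flrt3 lies in a Macrod2 intron, 915980 bases from Flrt3, and that assigned to Slit3 lies 143321 bases from that gene. Caveolae and lipid transport genes had 3 among 140, with 31 called higher (22.1%) and 6 lower (4.29%). Cell cycle genes had 0 gained peaks among 121, with 14 called higher and 7 lower, and leukocyte adhesion genes had 0 among 128, with 10 called higher and 9 lower. With 0.851% of all peaks gained, lists of this size are too small to tell 0 from that share.

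**Figure D5:**
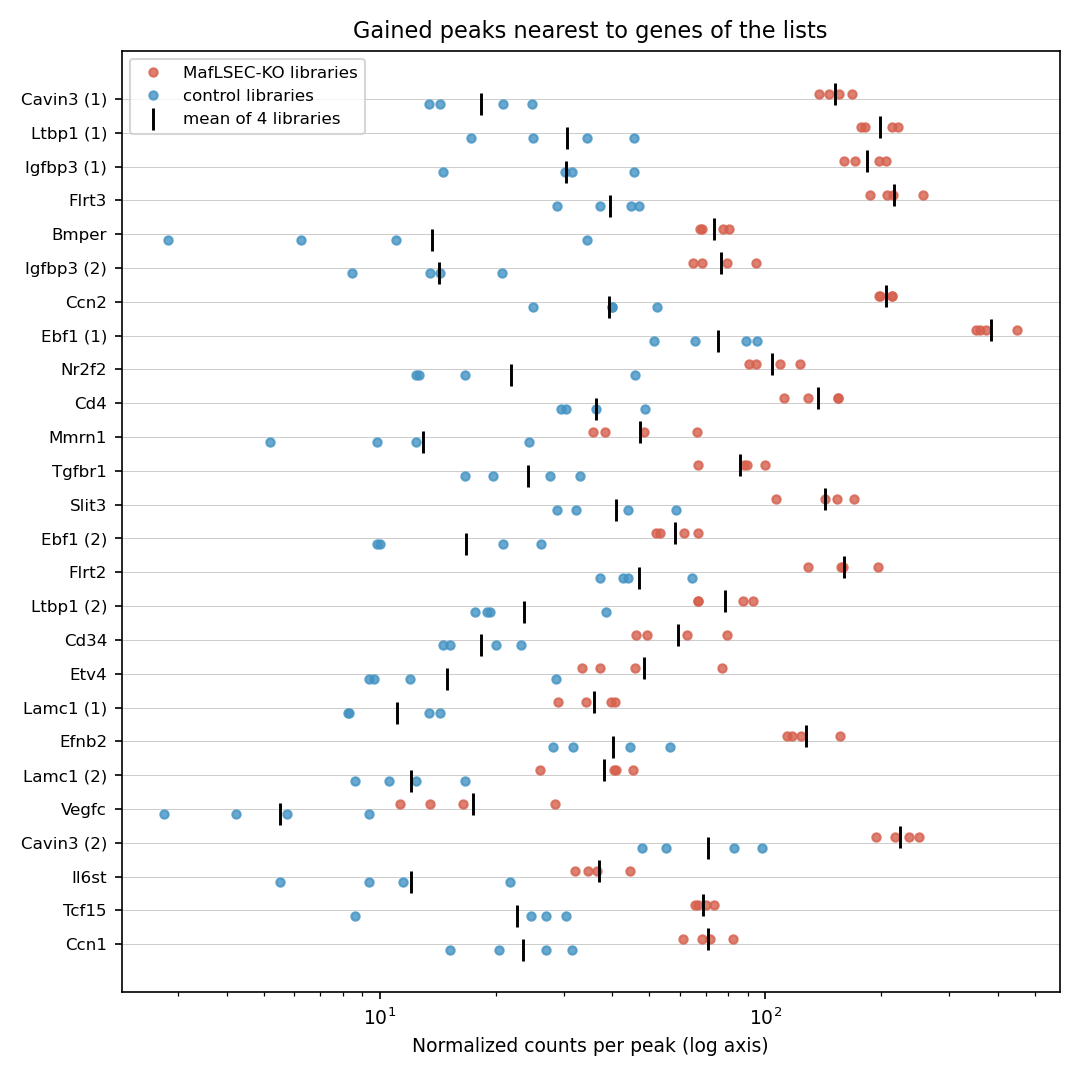
Normalized counts per peak (horizontal, log axis) of gained peaks nearest to genes of the lists (vertical), with 1 point for each MafLSEC-KO library (red, upper) and control library (blue, lower) and a bar at the mean of the 4 libraries; peaks of 1 gene are numbered by their ratio. In each row all red points lie right of all blue points by the rule, closest for Etv4 with 33.4 against 28.6.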

How the data were processed

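The 4 MafLSEC-KO and 4 control ATAC-seq libraries were analysed from 1 table of peaks. According to the study's methods, the authors trimmed with Trimmomatic, mapped to mm10 with Bowtie2, discarded PCR duplicates, called peaks with MACS2, dropped blacklisted peaks, merged those of both genotypes and counted reads per merged peak with bedtools multicov. The labels name HOMER 4.11, bedtools 2.30.0, DESeq2 1.42.1 and deepTools 3.5.1. Whether peaks were called per library, and any shift of read ends for Tn5, were not given in the sources used here. The deposited table holds raw read counts per library. It also holds the authors' normalized signal, which equals the counts times 1 factor per library and is called normalized counts here. The third kind of value is the authors' RPKM. The authors' columns of log2 fold changes with their errors, test statistics and p-values were not used, and 0 per-sample columns were left without a sample.

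The rule for gained peaks was applied to the normalized counts. Raw counts were tested with edgeR 4.0.16 in R 4.3.3 (TMM, filterByExpr, quasi-likelihood test, genotype as the only term, two-sided, Benjamini-Hochberg adjustment over 58268 peaks). DESeq2 1.42.0 was an alternative. Peak sequences were read with pysam 0.24.0 from GRCm38.p6, and host genes from GENCODE. Annotation classes and nearest genes are those of the deposited table. Besides the motifs spelled out with the results, those for TCF/LEF (CTTTGA), STAT (TTCNNNGAA), the hypoxia element (ACGTGC), KLF (GGGNGTG), an E-box (CAGCTG), CRE (TGACGTNA), RUNX (TGTGGT), forkhead (GTAAACA), IRF (GAAA and GAAA spaced by 2 bases), EBF (TCCC and GGGA spaced by 2) and NF-kappaB (GGGA and TTCC spaced by 2) were searched. Matches of different motifs may overlap.

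Named peaks were the 12 with the largest ratios (1 per gene, predicted genes passed over), the 8 promoters with the highest MafLSEC-KO counts (1 of them is not reported here), genes with at least 4 gained peaks, up to 4 peaks per gene list, the 5 highest in controls and the 3 on either side of the threshold. The members, lists, motifs and rules were chosen with earlier results of these data known. Intervals cover counting error only. The p-values set the difference between the groups against how far libraries of a group differed, which may be technical in origin. Libraries of a group differed by more than sampling noise (chi-square per peak 2.43 to 9.19), so none was counted as a repeat deposit. Alternatives covered scaling, ratio, filters, test, covariates and each library left out. The edgeR test was tried on simulated counts.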

Additional observations from a re-analysis of the deposited data

Results flagged for a closer look

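In groups of 4 libraries, 142 sets of values (named peaks and library measures) were checked for a library far from the others, and 8 had one. Chance gives about 1 in 20 such sets. Control replicate 1 was the far library in 5 of these sets. It was highest at the gained peaks near Nr2f2 (45.8 normalized counts, others 12.4 to 16.6), Emp1 (120, others 53.0 to 63.4), the intronic Ltbp1 peak (38.7, others 17.7 to 19.3) and Etv4 (28.6, others 9.36 to 12.0), and lowest at the Sh3gl3 promoter (22.9, others 27.03 to 27.6). At the Sh3gl3 promoter MafLSEC-KO replicate 4 was also low, with 73.7 against 110 to 114. MafLSEC-KO replicate 1 had the highest share of counts on chromosome Y (0.00526%, others 0.00434% to 0.00437%) and the highest summed count at macrophage marker peaks (1327 normalized counts, others 1146 to 1160). Whether the depth of control replicate 1, the shallowest library, plays a part was not tested.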

How the results depend on the processing

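With the authors' normalized counts replaced by edgeR's TMM CPM, CPM by total count or RPKM, 440, 383 and 421 peaks met the rule, all of them among the 498. The median log2 ratio of all peaks was between -0.04 and 0.02 on these scales. A ratio of 2 gave 2422 peaks and a ratio of 4 gave 127. At a ratio of 2 the promoter share was 4.71%, the median control level 29.0 normalized counts and the AP-1 share 31.0%. At a ratio of 4 the intergenic share was 55.1% and the median width 532 bases. Over the whole peak in place of the central window, 47.6% of gained peaks held an AP-1 match, against 21.2% of all peaks. Without control replicates 1 and 3, an alternative chosen after seeing the data, 1154 peaks met the rule, with a promoter share of 4.16%, a median control level of 16.3, a median width of 440 bases and an AP-1 share of 31.7%. The cause of these differences was not tested.

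Leaving out 1 library at a time gave 469 to 708 peaks, promoter shares of 2.17% to 3.20%, median control levels of 19.96 to 23.7 and 3349 to 5702 peaks called higher by edgeR, lowest without control replicate 2, of which 485 to 497 were gained peaks. With the log2 total count as a covariate, 8573 peaks were called higher. With the replicate number as a block, 8264 were called higher, among them all 498 gained peaks. Same-numbered libraries deviated together with r = 0.19, 0.10, 0.26 and 0.44 for numbers 1 to 4, and because that of number 2 was under 0.1 (0.0967) and no label ties the numbers to shared animals or days, they were not read as pairs. Over 660 alternative values of the 60 named peaks, 0 reversed and 7 lost the adjusted p threshold, all of the Vegfc peak and all on leaving out a library (log2 fold changes 1.26 to 1.74). Depth limits the weakest gained peaks, with 15 reads over the 4 control libraries at the lowest.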

Other observations

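Peaks of lymphatic endothelium genes were more often called lower than higher, whereas of all peaks 8.97% were called higher and 6.45% lower. Their list had 2 gained peaks among 67, assigned to Mmrn1, a protein of platelets and lymphatic endothelium, and Nr2f2. These peaks lie 103549 bases from Mmrn1 and 480800 bases from Nr2f2. Of the list's tested peaks, 5 (7.58%) were called higher and 23 (34.8%) lower. The Mmrn1 peak had 38.4, 48.5, 66.6 and 35.7 normalized counts in MafLSEC-KO and 24.3, 5.20, 12.4 and 9.85 in controls. Tip cell genes had 2 gained peaks among 157, with 21 peaks called higher (13.4%) and 10 lower (6.37%), and genes of VEGF, angiopoietin, Notch and growth factor signalling had 3 among 251, with 30 called higher (12.0%) and 13 lower (5.18%), against 0.851% gained over all peaks. MAF, BACH and NRF factor genes had 4 peaks called higher (3.54%) and 11 lower (9.73%). Among lists of other cell types, 1 of 23 hepatocyte, 1 of 17 macrophage, 1 of 22 lymphocyte, 0 of 23 stellate cell and 2 of 16 cholangiocyte peaks were called higher, and 0, 2, 1, 3 and 0 of the same lists were called lower, counts too small to set against the shares of all peaks.

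An AP-1, SOX or GATA element was present in 363 of the 498 gained peaks (72.9%), against 34.9% of all peaks and 42.0% of lost peaks. The remaining gained peaks held none of these elements within the central 300 bases. The SOX element was the more frequent one in gained promoters, with 4 of 10 against 1 of 10 for AP-1.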
